A study of Mus musculus with 12 samples.

Results

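The Ikaros family of zinc finger transcription factors (Ikzf1 to Ikzf5) was examined by chromatin accessibility at its 5 gene loci in differentiating mouse CD4+ T cells. Members were the ATAC-seq peaks whose nearest protein-coding gene model within 100 kb was one of the 5 genes, which gave 42 of the 48443 peaks counted. Ikzf1 held 20 of them, Ikzf2 10, Ikzf3 6, Ikzf4 4 and Ikzf5 2. ATAC-seq marks open chromatin by the insertion of a transposase, so the counts describe access to DNA at a locus, not the expression of its gene. Naive CD4+ T cells sorted from the spleens of wild-type C57BL/6 mice were activated on plate-bound anti-CD3 with anti-CD28 (1 µg/ml each), a stimulus shared by all groups. Non-pathogenic Th17 cells (Th17n) were made with 25 ng/ml IL-6 plus 2 ng/ml TGF-beta1, and induced regulatory T cells (iTreg) with 2 ng/ml TGF-beta1 alone. Both were cultured for 68 hours with vehicle or with 100 µM DFMO (difluoromethylornithine), which blocks ornithine decarboxylase, the entry enzyme of polyamine synthesis. Each of the 4 groups held 3 libraries, 1 from each of 3 numbered animals, and values below are listed in the order of animals 1, 2 and 3. All are in vitro cultures of bulk cells, in which fewer cells with an open region and less access per cell cannot be told apart.

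Ikaros proteins bind DNA through zinc fingers near one end and pair with each other through zinc fingers at the other. In lymphocytes they recruit the NuRD, SIN3 and CtBP corepressor complexes, and can silence or activate a target. Ikaros (Ikzf1) is required for lymphocyte development, Helios (Ikzf2) and Eos (Ikzf4) are best known from regulatory T cells, Aiolos (Ikzf3) is known to repress Il2 in Th17 cells, and Pegasus (Ikzf5) is the most distant relative. Ikaros and Aiolos are also proteins that cereblon, a ubiquitin ligase receptor, marks for destruction when human cells are given thalidomide analogues.

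Promoter sequence is shown for the genes matched in the RefSeq promoter table, Ikzf1 at 2 starts and Ikzf5, since the GC content and motif content of these windows differ within the family (build GRCm38.p6, 250 bases up to the start, 5′ to 3′ on the gene's strand). The promoter windows of Ikzf2, Ikzf3 and Ikzf4 were not analysed here. Both Ikzf1 windows and the Ikzf5 window overlapped a member peak. Capitals mark the Ikaros core motif, searched as GGGAA on both strands (GGGAA or TTCCC).
Ikzf1, upstream start, chr11:11685675-11685924, plus strand: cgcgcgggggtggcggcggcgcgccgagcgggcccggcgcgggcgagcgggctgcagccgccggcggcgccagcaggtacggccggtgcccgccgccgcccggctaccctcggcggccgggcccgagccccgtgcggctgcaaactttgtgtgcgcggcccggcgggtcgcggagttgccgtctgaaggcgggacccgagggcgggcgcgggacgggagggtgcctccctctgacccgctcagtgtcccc
Ikzf1, downstream start, chr11:11689927-11690176, plus strand: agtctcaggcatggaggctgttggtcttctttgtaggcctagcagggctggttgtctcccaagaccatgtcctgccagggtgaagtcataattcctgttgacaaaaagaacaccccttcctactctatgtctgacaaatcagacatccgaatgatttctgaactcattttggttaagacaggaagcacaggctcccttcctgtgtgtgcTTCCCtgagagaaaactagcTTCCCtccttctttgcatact
Ikzf5, chr7:131410479-131410728, minus strand: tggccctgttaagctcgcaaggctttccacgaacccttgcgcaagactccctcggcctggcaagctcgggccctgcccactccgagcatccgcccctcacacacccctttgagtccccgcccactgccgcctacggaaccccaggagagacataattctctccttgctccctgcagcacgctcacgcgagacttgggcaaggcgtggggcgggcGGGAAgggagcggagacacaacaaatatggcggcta
The upstream Ikzf1 window was 82.0% GC with 44 CpG dinucleotides and no match to the core, and lay wholly inside the peak at the gene's lower end. The downstream Ikzf1 window was 47.6% GC with 1 CpG and 2 matches, and 214 of its 250 bases lay in the peak 5.3 kb into the gene. The Ikzf5 window was 64.0% GC with 18 CpG and 1 match, wholly inside the gene-end peak. Over all 32851 windows of the same length the medians were 52.4% GC and 6 CpG, and 56.2% held the core, so a match is common. Neither TGANTCA (AP-1; 6.75% of all windows, its reverse complement being the same motif) nor CCGGAAG (ETS; CCGGAAG or CTTCCGG, 6.91%) was found in the 3 windows.

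Most of the family's peaks lay inside the genes. Of the 42, 28 (66.7%) lay inside a gene model, 4 (9.52%) within 1 kb of a gene model's end and 10 (23.8%) outside, against 44.8%, 26.5% and 28.7% of the 46093 peaks assigned to any gene. Widths ran from 186 to 2020 bp with a median of 456 bp (480 bp over all peaks). Each peak is named below by the distance of its centre, in kb, from the lower-coordinate end of the gene model in mm10. The gene models span chr11:11684962-11772930 for Ikzf1, chr1:69531207-69687351 for Ikzf2, chr11:98464610-98546031 for Ikzf3, chr10:128630839-128669671 for Ikzf4 and chr7:131388649-131410518 for Ikzf5. Exon and intron boundaries were not used here. Nearness does not tell which gene a region acts on. With non-coding gene models counted too, 5 of the Ikzf1 peaks were nearest to Gm11999 and 2 of the Ikzf4 peaks to Gm26876. The Ikzf5 gene-end peak also overlaps the protein-coding gene Acadsb.

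Library depth differed by 6.36 times, from 1020937 counts (Th17n vehicle, animal 1) to 6496550 (Th17n vehicle, animal 2), and the family's peaks held 0.0768% to 0.101% of a library. Accessibility is given as CPM, the count scaled to a library total of 1e6. In the shallowest library 1 count is 0.979 CPM and a count of 0 allows up to 2.94 CPM, for counting error only. Of the 504 member values, 9 were 0. All 10 T cell markers looked up had peaks. Th17 marker peaks were higher in Th17n at 51 and lower at 14 of 96 in vehicle, and Treg marker peaks higher at 21 and lower at 25 of 90 (25.2% of all peaks were higher and 19.3% lower). Summed marker peaks were lower with DFMO than with vehicle, without overlap, in both lineages. T cell marker sums were 1606 to 1678 CPM with vehicle and 1458 to 1507 with DFMO in Th17n, and 1558 to 1599 and 1418 to 1450 in iTreg. Treg marker sums were, in the same order, 2015 to 2100 and 1603 to 1729 CPM in Th17n, and 1986 to 2010 and 1452 to 1711 in iTreg. The Treg sum was thus slightly higher in Th17n than in iTreg in vehicle, without overlap, and the lineages overlapped under DFMO. Under DFMO 27 of the 90 Treg marker peaks were higher and 17 lower in Th17n (22.5% and 14.7% of all peaks). Th17 marker sums were 2234 to 2451 and 1965 to 2131 CPM in Th17n, and 1469 to 1742 and 1187 to 1435 in iTreg. The part of these shifts in the DFMO results below was not tested. The B cell markers Cd79a, Cd79b and Ms4a1 had no peak. The peaks at B cell genes that had any summed to 242 to 275 CPM in Th17n vehicle, 261 to 278 in Th17n with DFMO, 146 to 208 in iTreg vehicle and 154 to 177 in iTreg with DFMO. The B cell sum was therefore higher in Th17n in both treatments. Its 22 tested peaks went both ways, 10 higher and 5 lower in Th17n in vehicle. Under DFMO 10 were higher and 2 lower (22.5% and 14.7% of all peaks). The part of this sum in the lineage differences below was not tested. Peaks at myeloid genes summed to 86.8 to 125 CPM in vehicle and 102 to 126 with DFMO over both lineages. Those at cytotoxic T and NK genes summed to 143 to 187 (Th17n vehicle), 139 to 170 (Th17n with DFMO), 178 to 208 (iTreg vehicle) and 195 to 216 (iTreg with DFMO). The cytotoxic T and NK sum was thus higher in iTreg under DFMO without overlap, and its part was not tested either. There was no peak at Cd8a, Klrd1, Ncr1 or Nkg7.

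Across the family, more peaks passed the test for lineage than for DFMO. Of the 42 peaks 37 had enough counts to be tested, and 26 of these (70.3%) passed the test in at least 1 of 5 contrasts, against 58.6% of all 43726 peaks tested. The test was edgeR's quasi-likelihood test with Benjamini-Hochberg adjustment over all tested peaks and a threshold of 0.05; log2 changes are given with their standard error (SE). In vehicle, 7 of the 37 were higher in Th17n and 11 higher in iTreg (48.6%, against 44.6% of all peaks, 25.2% higher and 19.3% lower in Th17n). Under DFMO 6 were higher in Th17n and 15 in iTreg (56.8%, against 37.2%, 22.5% higher and 14.7% lower), with a median log2 Th17n/iTreg of -0.29 against -0.00 over all peaks. The same direction was called in both treatments at 14 peaks (37.8%, against 26.5% of all peaks), 5 higher in Th17n and 9 higher in iTreg. These 2 contrasts share no library. They do share the 3 animals and 1 model of all 12 libraries with 1 estimate of the spread, so they are not independent.

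DFMO calls were few and close to the background. In Th17n 2 of the 37 rose and 2 fell (10.8%, against 8.78% of all peaks, 4.50% up and 4.28% down), and in iTreg 1 rose and 2 fell (8.11%, against 8.56%, 3.84% up and 4.72% down). The median log2 DFMO/vehicle was -0.13 in Th17n and -0.05 in iTreg, against 0.01 and -0.01 over all peaks. The difference between the DFMO effects of the 2 lineages (the interaction, Th17n minus iTreg) passed at 1 peak, in Ikzf3 (2.70%, against 1.31% in all, 0.835% of that sign and 0.478% of the opposite sign). No member peak passed it with the opposite sign in edgeR, where 5 had an unadjusted p under 0.05, or in DESeq2. The T cell, Treg and Th17 marker sums given above, which were lower with DFMO in both lineages, moved with these contrasts. The estimated DFMO change had the same sign in both lineages at 21 of the 37 peaks, as the plot of both DFMO effects shows. The DFMO counts rest on few libraries: without any single Th17n vehicle library, or without Th17n DFMO animal 1 or 3, the 2 rises in Th17n became 0. They became 1 without Th17n DFMO animal 2. The 2 falls in Th17n became 1 without Th17n vehicle animal 2 or 3 or without Th17n DFMO animal 3. They became 3 without Th17n DFMO animal 1. In iTreg the count of rises became 0 without iTreg vehicle animal 2 or 3 or iTreg DFMO animal 1 or 3, 2 without Th17n vehicle animal 1 and 3 without iTreg DFMO animal 2. The count of falls became 0 without iTreg vehicle animal 3 or iTreg DFMO animal 1 or 3, and 1 without Th17n vehicle animal 2 or 3, Th17n DFMO animal 1 or 2 or iTreg vehicle animal 2. The interaction count became 2 without Th17n vehicle animal 2, iTreg vehicle animal 1 or iTreg DFMO animal 2.

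**Figure D1:**
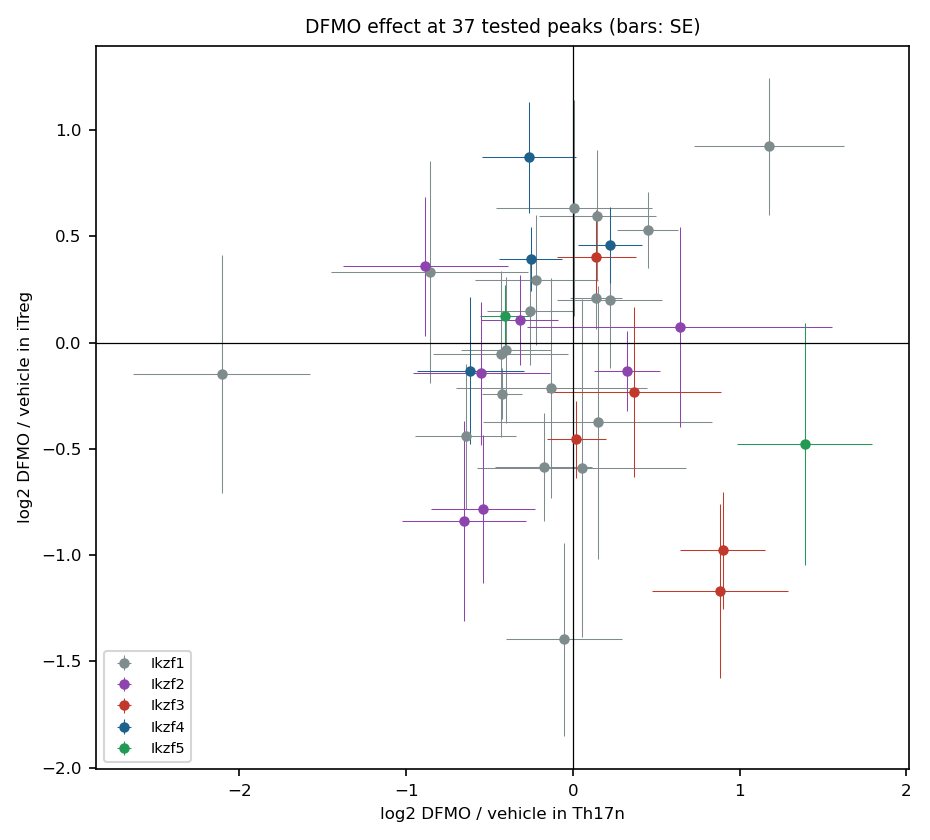
Log2 DFMO/vehicle in Th17n (x axis) against iTreg (y axis) for the 37 tested peaks, 1 point each, coloured by gene, with bars of 1 SE. The Ikzf3 13.0-kb and 23.2-kb peaks sit together at lower right, at 0.90 and 0.88 in Th17n and -0.98 and -1.17 in iTreg.

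Counts were also summed over all peaks of a gene, and Ikzf4 had the widest spread of these sums relative to its level. The plot of gene sums shows every library. Levels between genes were compared per kb of peak, as means of 12 libraries: Ikzf5 stood at 56.3 CPM per kb (47.6 to 67.8), Ikzf4 at 42.6 (28.1 to 68.5), Ikzf1 at 38.7 (34.2 to 45.0), Ikzf3 at 33.1 (25.1 to 39.2) and Ikzf2 at 25.3 (18.2 to 33.2). Neighbours in this order overlapped in range over the 12 libraries. Within groups, Ikzf4 lay at 28.1 to 32.1 CPM per kb in Th17n with DFMO, below Ikzf1 (34.2 to 37.2) and Ikzf3 (32.9 to 39.2), and at 50.6 to 68.5 in iTreg with DFMO, above Ikzf1 (37.1 to 45.0) and Ikzf3 (25.1 to 31.9). None of the 5 sums passed for DFMO in Th17n in edgeR, where 11.0% of 14178 genes did (4.16% up, 6.83% down); 2 had an unadjusted p under 0.05, and DESeq2 called none. In iTreg 1 of the 5 rose with DFMO (background 12.6%, 5.61% up and 6.97% down). For lineage, 1 was lower in Th17n in vehicle (background 32.9%, 19.5% higher and 13.4% lower). Under DFMO 1 was higher and 2 were lower (background 26.7%, 16.3% higher and 10.3% lower). For the interaction, 1 passed in each direction (background 1.92%, 0.790% higher and 1.13% lower).

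**Figure D2:**
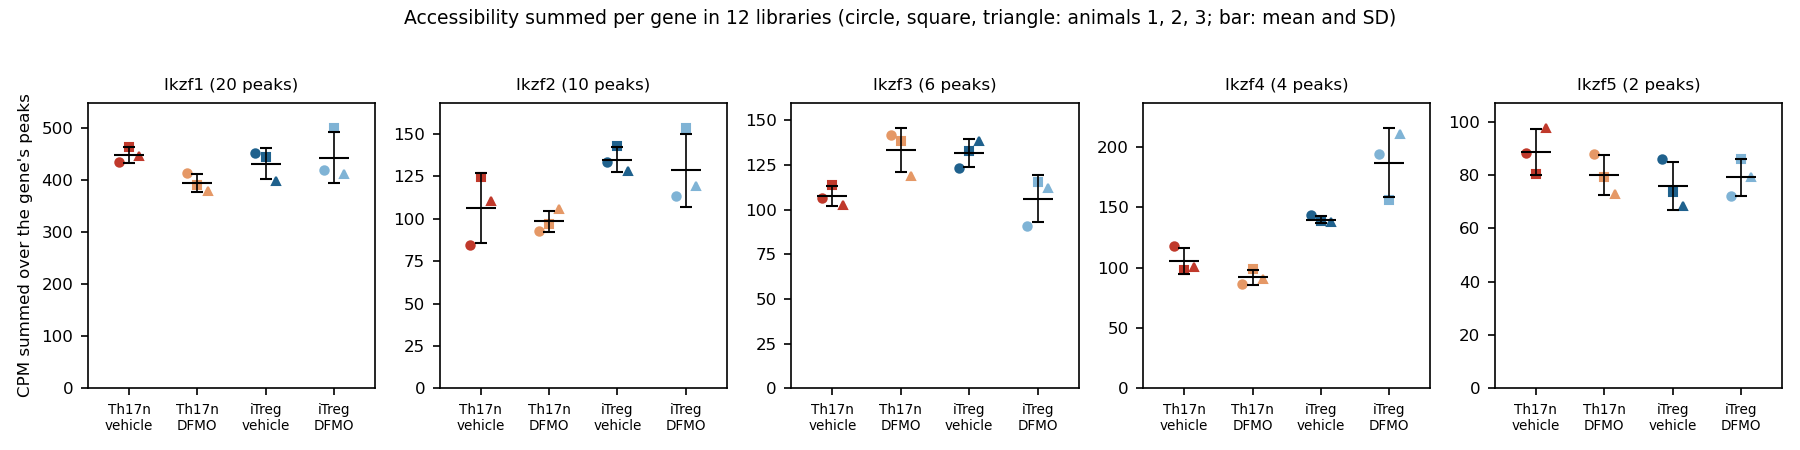
CPM summed over each gene's peaks (y axis, from 0) in the 4 groups (x axis), with 1 symbol per animal and the mean and SD of 3 libraries. Ikzf4 runs from 86.4 to 98.7 CPM in Th17n with DFMO and from 156 to 211 in iTreg with DFMO, while Ikzf5 stays between 68.3 and 97.5 in all 12 libraries.

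Ikzf1, the founding member, gave sums of 434, 464 and 447 CPM in Th17n vehicle and 413, 391 and 380 in Th17n with DFMO. In iTreg the sums were 453, 444 and 398 with vehicle and 418, 499 and 412 with DFMO. The Th17n groups did not overlap, but the log2 DFMO/vehicle of -0.23 ± 0.09 did not pass (adjusted p 0.0923, edgeR), and no other contrast of the sum did. Single peaks differed more than the sum, in both directions along the gene.

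The peak at the lower end of Ikzf1 (0.8 kb, chr11:11684741-11686747), which holds the GC-rich window printed above, was more open in iTreg. It gave 53.9, 61.0 and 72.2 CPM in Th17n vehicle, 62.7, 69.7 and 75.5 in Th17n with DFMO, 93.1, 87.5 and 84.9 in iTreg vehicle and 86.3, 131 and 84.7 in iTreg with DFMO. Every iTreg library was above every Th17n library. The log2 Th17n/iTreg was -0.54 ± 0.15 in vehicle and -0.61 ± 0.15 under DFMO (adjusted p 0.00229 and 0.00118). The neighbouring peak at 5.3 kb (chr11:11689963-11690586), over the downstream window with 2 core matches, showed no lineage difference past the test, at -0.04 ± 0.18 and -0.12 ± 0.18. Its values in iTreg were 50.6, 43.4 and 31.7 CPM with vehicle and 58.1, 63.6 and 54.2 with DFMO, and in Th17n 47.0, 46.8 and 32.9 with vehicle and 66.0, 55.0 and 44.9 with DFMO. The iTreg DFMO effect of 0.53 ± 0.18 missed the threshold (adjusted p 0.0548) and passed with the animal as a block (adjusted p 0.0283).

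The highest peak of the family, at 40.6 kb in Ikzf1 (chr11:11724509-11726529), fell with DFMO in Th17n. It gave 148, 175 and 163 CPM in Th17n vehicle and 139, 117 and 99.6 with DFMO, so the groups did not overlap. In iTreg it gave 148, 137 and 129 CPM with vehicle and 106, 120 and 118 with DFMO. The log2 DFMO/vehicle was -0.42 ± 0.12 in Th17n (adjusted p 0.0201) and -0.24 ± 0.12 in iTreg (adjusted p 0.226), and the interaction of -0.18 ± 0.17 did not pass (adjusted p 0.689). The Th17n call was lost without Th17n vehicle animal 2 or 3 or Th17n DFMO animal 2 or 3 (adjusted p up to 0.126).

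A pair of peaks 2 kb apart deep in Ikzf1 was higher in Th17n than in iTreg in vehicle. The 64.2-kb peak (chr11:11748858-11749386) gave 34.3, 28.6 and 27.3 CPM in Th17n vehicle, 21.4, 19.0 and 26.0 in Th17n with DFMO, 4.60, 9.24 and 6.67 in iTreg vehicle and 5.28, 6.17 and 8.50 in iTreg with DFMO. All 6 Th17n libraries were above all 6 iTreg libraries, with log2 Th17n/iTreg of 1.96 ± 0.29 in vehicle and 1.60 ± 0.32 under DFMO (adjusted p 2.92e-07 and 8.93e-05). The 66.2-kb peak (chr11:11751066-11751300) gave 18.6, 7.70 and 9.69 CPM in Th17n vehicle and only 2.92, 1.30 and 3.26 in Th17n with DFMO, against 2.56, 3.22 and 3.64 in iTreg vehicle and 5.28, 1.90 and 2.05 in iTreg with DFMO. It was thus high only in the Th17n vehicle libraries, the highest of which is also the shallowest library. Its log2 DFMO/vehicle in Th17n was -2.11 ± 0.53 (adjusted p 0.00722) and its log2 Th17n/iTreg in vehicle 1.67 ± 0.47 (adjusted p 0.00317), 2 contrasts that share the Th17n vehicle libraries. Its interaction of -1.96 ± 0.78 did not pass (adjusted p 0.212).

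Upstream of Ikzf1 the peaks divided by lineage. The -5.7-kb peak (chr11:11678989-11679570) gave 0, 3.85 and 2.94 CPM in Th17n vehicle and 14.3, 14.8 and 10.9 in iTreg vehicle. With DFMO it gave 3.90, 7.36 and 10.4 CPM in Th17n and 23.5, 29.9 and 21.4 in iTreg. It was higher in iTreg by 2.18 ± 0.40 log2 units in vehicle and 1.93 ± 0.37 under DFMO (log2 Th17n/iTreg -2.18 and -1.93, adjusted p 1.16e-05 and 3.86e-05). DFMO values were above vehicle values in both lineages without overlap, but log2 DFMO/vehicle of 1.18 ± 0.45 and 0.92 ± 0.32 did not pass (adjusted p 0.0867 in Th17n and 0.0604 in iTreg). The -27.5-kb peak was likewise lower in Th17n, at 3.92, 9.54 and 10.6 CPM in vehicle and 5.20, 9.09 and 9.12 with DFMO, against 20.5, 16.3 and 13.9 and then 28.8, 18.0 and 14.9 in iTreg (log2 -0.96 ± 0.32 and -1.47 ± 0.35, adjusted p 0.0127 and 0.000746). Between them the -16.0-kb peak went the other way, with 25.5, 21.4 and 24.7 CPM in Th17n vehicle against 5.63, 13.1 and 10.7 in iTreg vehicle, and 10.1, 19.5 and 15.6 against 7.63, 7.59 and 7.33 under DFMO (log2 1.11 ± 0.30 and 0.91 ± 0.35, adjusted p 0.0019 and 0.0326). The vehicle call at -27.5 kb was lost without Th17n vehicle animal 1 (adjusted p 0.0678) and after thinning (adjusted p 0.134). The DFMO call at -16.0 kb was lost without Th17n DFMO animal 2 or 3 or any single iTreg DFMO library (adjusted p up to 0.219).

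Inside the gene, adjacent peaks at 46.7 kb and 49.2 kb had opposite lineage differences. The 46.7-kb peak gave 20.6, 14.9 and 16.7 CPM in Th17n vehicle against 41.9, 34.2 and 30.1 in iTreg vehicle (log2 -1.13 ± 0.26, adjusted p 0.000363). Under DFMO it gave 13.0, 8.65 and 24.1 against 18.8, 26.1 and 23.4, groups that overlap (log2 -0.72 ± 0.29, adjusted p 0.0412). The 49.2-kb peak was higher in Th17n, at 7.84, 11.5 and 18.8 CPM against 5.63, 7.09 and 7.08 in vehicle (log2 0.92 ± 0.35, adjusted p 0.0286) and 11.7, 11.2 and 15.6 against 1.76, 3.32 and 2.34 under DFMO (log2 2.26 ± 0.44, adjusted p 6.18e-05). It fell with DFMO in iTreg (log2 -1.40 ± 0.46, adjusted p 0.0422). That fall was lost without any of 8 single libraries (adjusted p up to 0.171): Th17n vehicle animal 2 or 3, Th17n DFMO animal 1 or 2, iTreg vehicle animal 2 or 3, or iTreg DFMO animal 1 or 3. It was also lost in DESeq2 (adjusted p 0.0610), after thinning and with only the groups compared in the model (adjusted p up to 0.523). The vehicle lineage call at 49.2 kb was lost without Th17n vehicle animal 3 or any single iTreg vehicle library (adjusted p up to 0.268), and after thinning (adjusted p 0.367). The DFMO lineage call at 46.7 kb was lost without Th17n DFMO animal 1 or 2, iTreg vehicle animal 2, or iTreg DFMO animal 2 or 3 (adjusted p up to 0.257). With all libraries kept, it was lost with library totals in place of TMM factors, after thinning and with only the groups compared (adjusted p up to 0.24). One further Ikzf1 peak, at 81.3 kb and named here after its values were seen, passed for lineage under DFMO (log2 -1.12 ± 0.33, adjusted p 0.00661). Of the 9 other tested Ikzf1 peaks, none passed in the main edgeR test or in DESeq2, and 2 had an unadjusted p under 0.05 in a contrast. The 5.3-kb peak is among these 9, and passed in edgeR with the animal as a block, as given above.

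**Figure D3:**
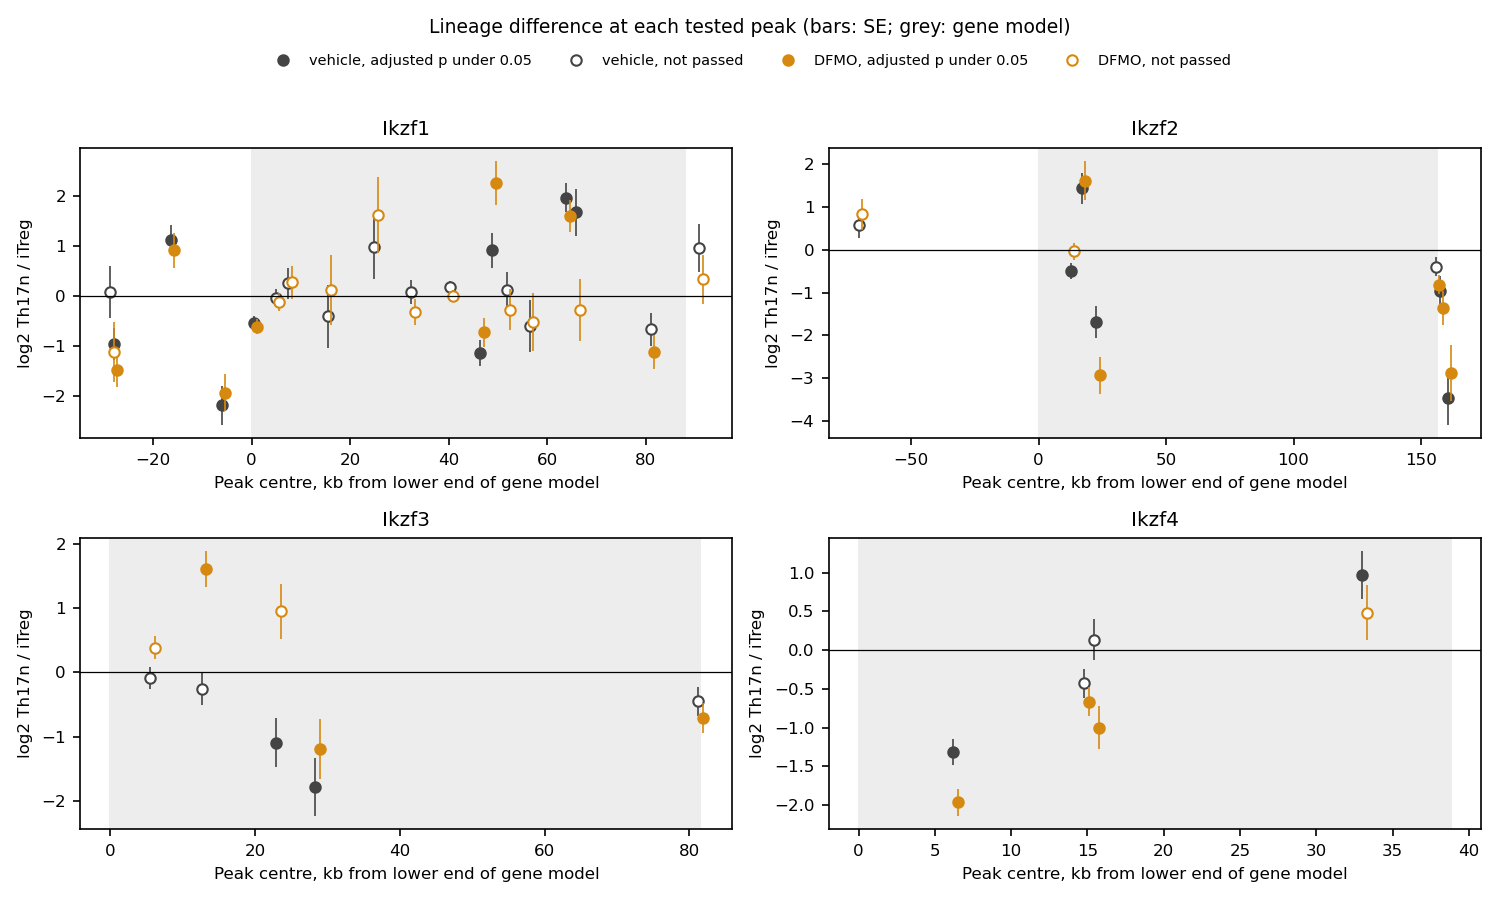
Log2 Th17n/iTreg with 1 SE (y axis) at each tested peak of Ikzf1 to Ikzf4 along the gene (x axis, kb from the lower-coordinate end; points for vehicle and DFMO are set slightly apart). Filled points passed the test. Every gene shown holds filled points of both directions, as at 17.7 kb (1.44 in vehicle) and 23.3 kb (-1.69) in Ikzf2.

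Ikzf2, which encodes the Treg-associated factor Helios, was more open in iTreg at most of the peaks that differed. Of 7 tested peaks, 4 were higher in iTreg and 1 in Th17n in vehicle, and again 4 and 1 under DFMO. Over all peaks 19.3% were higher in iTreg and 25.2% in Th17n in vehicle, and 14.7% and 22.5% under DFMO. DESeq2 called 2 and 1 in vehicle and 4 and 1 under DFMO. No Ikzf2 peak passed for DFMO in either lineage in edgeR, where 1 had an unadjusted p under 0.05, in iTreg; DESeq2 called none. The summed level was 84.2, 124 and 110 CPM in Th17n vehicle, 92.9, 96.9 and 105 in Th17n with DFMO, 133, 143 and 128 in iTreg vehicle and 113, 153 and 119 in iTreg with DFMO. Both iTreg groups lay above the Th17n groups of the same treatment. The sum differed past the test under DFMO (log2 Th17n/iTreg -0.36 ± 0.13, adjusted p 0.0314) and not in vehicle (-0.22 ± 0.12, adjusted p 0.167). The former was lost without Th17n DFMO animal 1 or 2 or iTreg DFMO animal 2 (adjusted p up to 0.257), and after thinning (adjusted p 0.271).

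The 23.3-kb peak inside Ikzf2 (chr1:69554152-69554933) had the smallest adjusted p of the gene's lineage differences under DFMO. It gave 6.86, 6.16 and 3.23 CPM in Th17n vehicle, 0.975, 6.06 and 1.30 in Th17n with DFMO, 15.3, 16.3 and 16.6 in iTreg vehicle and 20.0, 25.1 and 16.7 in iTreg with DFMO. The lineages did not overlap in any library, with log2 Th17n/iTreg of -1.69 ± 0.37 and -2.93 ± 0.43 (adjusted p 0.0002 and 4.33e-07). A small peak at 161.2 kb (chr1:69692280-69692550), beyond the upper end of the gene model, was almost without counts in Th17n. It gave 0, 0.616 and 0.881 CPM in Th17n vehicle and 1.30, 0.865 and 0.651 with DFMO, against 4.60, 8.81 and 7.08 and 7.04, 11.4 and 4.10 in iTreg (log2 -3.45 ± 0.65 and -2.89 ± 0.66, adjusted p 1.49e-05 and 0.000379). The peak at 157.9 kb, between it and the gene, was also lower in Th17n, at 9.79, 7.39 and 5.58 CPM against 14.8, 17.2 and 8.29 in vehicle and 4.55, 4.33 and 5.86 against 11.7, 12.8 and 11.1 under DFMO (log2 -0.95 ± 0.35 and -1.36 ± 0.40, adjusted p 0.0225 and 0.00557). Its vehicle call was lost without Th17n vehicle animal 2 or 3 or iTreg vehicle animal 2 (adjusted p up to 0.188), and DESeq2 did not call it. After thinning this peak passed for lineage neither in vehicle (adjusted p 0.330) nor under DFMO (adjusted p 0.109).

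At the upper end of Ikzf2 the gene-end peak (156.3 kb, chr1:69687043-69687978) gave 18.6, 26.9 and 34.4 CPM in Th17n vehicle, 23.4, 17.7 and 25.4 in Th17n with DFMO, 36.3, 37.8 and 30.9 in iTreg vehicle and 32.3, 40.8 and 37.5 in iTreg with DFMO. It passed for lineage under DFMO (log2 -0.81 ± 0.23, adjusted p 0.00414) and not in vehicle (-0.39 ± 0.21, adjusted p 0.132), where the groups overlap. The 17.7-kb peak was the one that was higher in Th17n, at 13.7, 21.2 and 13.2 CPM against 5.63, 3.87 and 7.88 in vehicle and 7.15, 15.1 and 9.12 against 1.17, 5.69 and 2.64 under DFMO (log2 1.44 ± 0.37 and 1.62 ± 0.46, adjusted p 0.00142 and 0.00445). The latter call was lost without Th17n DFMO animal 2 (adjusted p 0.0694). The highest Ikzf2 peak, at 13.2 kb, gave 23.5, 35.4 and 32.9 CPM in Th17n vehicle against 44.0, 45.8 and 39.6 in iTreg vehicle, and 38.0, 40.2 and 41.0 against 29.9, 46.5 and 38.7 under DFMO. Its vehicle difference of -0.49 ± 0.19 (adjusted p 0.0308) was lost without Th17n vehicle animal 1 or 3, Th17n DFMO animal 1 or 2 or iTreg vehicle animal 2 (adjusted p up to 0.163). It was also lost in DESeq2 (adjusted p 0.0690), with RLE factors, with library totals and after thinning (adjusted p up to 0.124).

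Ikzf3, which encodes Aiolos, held the 1 member peak that passed for DFMO in both lineages, and its directions were opposite. Opposite signs alone were not particular to Ikzf3, since the estimates agreed in sign at only 21 of the 37 tested peaks. The Ikzf5 9.0-kb peak, for example, stood at 1.39 in Th17n and -0.48 in iTreg, where the latter did not pass. The 13.0-kb peak inside the gene (chr11:98477232-98477909) gave 23.5, 21.2 and 25.0 CPM in Th17n vehicle and 46.8, 34.6 and 45.6 in Th17n with DFMO. In iTreg it gave 31.2, 20.4 and 28.7 with vehicle and 5.28, 20.4 and 12.9 with DFMO. All DFMO libraries lay above all vehicle libraries in Th17n, whereas in iTreg DFMO animal 2 equalled vehicle animal 2 to the digits shown and the other DFMO libraries lay below. As means ± SD of 3 libraries the 4 groups stood at 23.2 ± 1.87, 42.3 ± 6.71, 26.8 ± 5.64 and 12.9 ± 7.56 CPM, in that order. The log2 DFMO/vehicle was 0.90 ± 0.25 in Th17n and -0.98 ± 0.28 in iTreg (adjusted p 0.0181 and 0.0186). The interaction was 1.88 ± 0.37 (adjusted p 0.00445, DESeq2 0.00206) and passed without each of the 12 libraries in turn (adjusted p up to 0.0352). It did not pass when all libraries were thinned to the smallest total (adjusted p 0.0663). The lineages did not differ past the test in vehicle (-0.26 ± 0.25, adjusted p 0.42) and did under DFMO (log2 Th17n/iTreg 1.62 ± 0.27, adjusted p 6.63e-06). The 2 DFMO effects were each less secure than their difference. The Th17n rise was lost without any single Th17n vehicle library or Th17n DFMO animal 1 or 3 (adjusted p up to 0.144), and after thinning (adjusted p 0.0985). The iTreg fall was lost without iTreg vehicle animal 3 or iTreg DFMO animal 1 or 3 (adjusted p up to 0.143), and after thinning or with only the groups compared (adjusted p up to 0.145).

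The 23.2-kb peak of Ikzf3 (starting at 98487648) had a similar pattern at lower counts. It gave 1.96, 7.54 and 3.82 CPM in Th17n vehicle, 7.80, 12.5 and 8.46 in Th17n with DFMO, 8.69, 11.2 and 11.9 in iTreg vehicle and 4.11, 3.32 and 6.15 in iTreg with DFMO. The groups of each lineage did not overlap, and the interaction of 2.05 ± 0.58 missed the threshold (adjusted p 0.0542) and passed with the animal as a block (2.17, adjusted p 0.0400). In vehicle it was lower in Th17n (log2 -1.10 ± 0.39, adjusted p 0.0174), a call lost without Th17n vehicle animal 1 or 3 or iTreg vehicle animal 2 or 3 (adjusted p up to 0.129). The 28.6-kb peak was lower in Th17n in both treatments, at 4.90, 2.77 and 2.64 CPM against 11.3, 12.04 and 7.48 in vehicle and 5.20, 1.30 and 5.21 against 5.87, 10.9 and 8.50 under DFMO (log2 -1.79 ± 0.45 and -1.19 ± 0.47, adjusted p 0.000941 and 0.039). The former was lost after thinning (adjusted p 0.0884). The latter was lost without Th17n DFMO animal 2 or iTreg DFMO animal 2 or 3 (adjusted p up to 0.229). It was also lost in DESeq2 (adjusted p 0.0563), with library totals, after thinning and with only the groups compared (adjusted p up to 0.201).

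The gene-end peak of Ikzf3 (81.5 kb, chr11:98545683-98546578) did not follow the 13.0-kb peak. It gave 19.6, 30.8 and 22.9 CPM in Th17n vehicle, 34.8, 29.9 and 16.3 in Th17n with DFMO, 26.6, 32.2 and 39.8 in iTreg vehicle and 42.3, 35.6 and 51.9 in iTreg with DFMO. It was higher in iTreg under DFMO (log2 Th17n/iTreg -0.71 ± 0.23, adjusted p 0.0128), a call lost without Th17n DFMO animal 3 or iTreg DFMO animal 3 (adjusted p up to 0.101). The highest Ikzf3 peak, at 5.9 kb, passed no contrast in edgeR and ran from 31.7 to 59.3 CPM over the 12 libraries. Summed over its 6 peaks, Ikzf3 gave 107, 114 and 103 CPM in Th17n vehicle, 142, 138 and 119 in Th17n with DFMO, 123, 133 and 139 in iTreg vehicle and 91.0, 115 and 112 in iTreg with DFMO. The sum passed for the interaction (0.58 ± 0.16, adjusted p 0.0472) and for lineage under DFMO (0.36 ± 0.12, adjusted p 0.0175). Without the 13.0-kb peak the sum's interaction was 0.25 (adjusted p 0.565) and its lineage difference under DFMO 0.01 (adjusted p 0.978). That peak was left out after seeing the data, for its strong call. Smaller values were thus built in and cannot show what the calls rest on. The interaction of the full sum was lost without any single Th17n vehicle library, Th17n DFMO animal 1 or 2, iTreg vehicle animal 2 or 3 or iTreg DFMO animal 1 or 3 (adjusted p up to 0.147). It was also lost after thinning (adjusted p 0.136). The lineage difference was lost without Th17n DFMO animal 1 or 2 or iTreg DFMO animal 1 (adjusted p up to 0.124).

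Ikzf4, which encodes the Treg-associated factor Eos, had the sum most raised in iTreg relative to Th17n. Its sum was 118, 97.9 and 100 CPM in Th17n vehicle, 86.4, 98.7 and 90.5 in Th17n with DFMO, 143, 138 and 137 in iTreg vehicle and 194, 156 and 211 in iTreg with DFMO. Every iTreg library was above every Th17n library, and every iTreg DFMO library above every iTreg vehicle library. The sum was higher in iTreg in vehicle (log2 Th17n/iTreg -0.37 ± 0.11, adjusted p 0.00979) and under DFMO (-0.995 ± 0.12, adjusted p 1.02e-09). It rose with DFMO in iTreg (0.42 ± 0.11, adjusted p 0.0076) and stood at -0.21 ± 0.12 in Th17n (adjusted p 0.274). The interaction of -0.63 ± 0.16 passed (adjusted p 0.029). It was lost without Th17n vehicle animal 1 or 3, Th17n DFMO animal 1 or 3, iTreg vehicle animal 2 or 3 or iTreg DFMO animal 1 or 3 (adjusted p up to 0.15). Thinning lost it too (adjusted p 0.117). The iTreg rise was lost without iTreg DFMO animal 3 (adjusted p 0.133). The vehicle lineage call was lost without Th17n vehicle animal 2 (adjusted p 0.0718) and after thinning (adjusted p 0.0980).

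The 6.4-kb peak inside Ikzf4 (chr10:128636651-128637739) had the smallest adjusted p of any lineage difference in the family. It gave 36.2, 27.7 and 27.6 CPM in Th17n vehicle, 21.4, 26.8 and 24.7 in Th17n with DFMO, 73.6, 67.3 and 68.7 in iTreg vehicle and 96.8, 74.5 and 98.8 in iTreg with DFMO. The log2 Th17n/iTreg was -1.32 ± 0.17 in vehicle and -1.97 ± 0.17 under DFMO (adjusted p 7.49e-09 and 1.73e-12). Its iTreg DFMO change of 0.39 ± 0.15 did not pass (adjusted p 0.0918). Without this peak, also left out after seeing the data for its strong call, the Ikzf4 sum did not differ by lineage past the test in vehicle (log2 0.14, adjusted p 0.434). It still did under DFMO (-0.49, adjusted p 0.00456). The iTreg rise of the remaining 3 peaks was 0.47 (adjusted p 0.0119), and their interaction of -0.64 did not pass (adjusted p 0.0654).

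The 15.6-kb peak of Ikzf4 (chr10:128646229-128646658) was the member peak that rose with DFMO in iTreg. It gave 14.3, 17.8 and 16.4 CPM in iTreg vehicle and 35.8, 24.2 and 29.3 with DFMO, without overlap (log2 DFMO/vehicle 0.87 ± 0.26, adjusted p 0.0263). In Th17n it gave 25.5, 15.4 and 19.4 with vehicle and 15.6, 19.9 and 9.77 with DFMO (-0.27 ± 0.28). The interaction of -1.14 ± 0.38 did not pass (adjusted p 0.125). The rise was lost without any single iTreg vehicle library or iTreg DFMO animal 1 or 3 (adjusted p up to 0.105), and after thinning (adjusted p 0.243). Under DFMO the peak was higher in iTreg (log2 Th17n/iTreg -1.0 ± 0.27, adjusted p 0.00321), as was its neighbour at 14.9 kb, with 38.3, 42.8 and 35.2 CPM in Th17n against 55.8, 45.1 and 73.9 in iTreg (-0.67 ± 0.19, adjusted p 0.00381, lost without iTreg DFMO animal 3 at 0.0918). The 33.2-kb peak was higher in Th17n in vehicle, with 14.7, 21.9 and 22.3 CPM against 8.18, 11.6 and 9.50 (0.96 ± 0.31, adjusted p 0.00935).

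**Figure D4:**
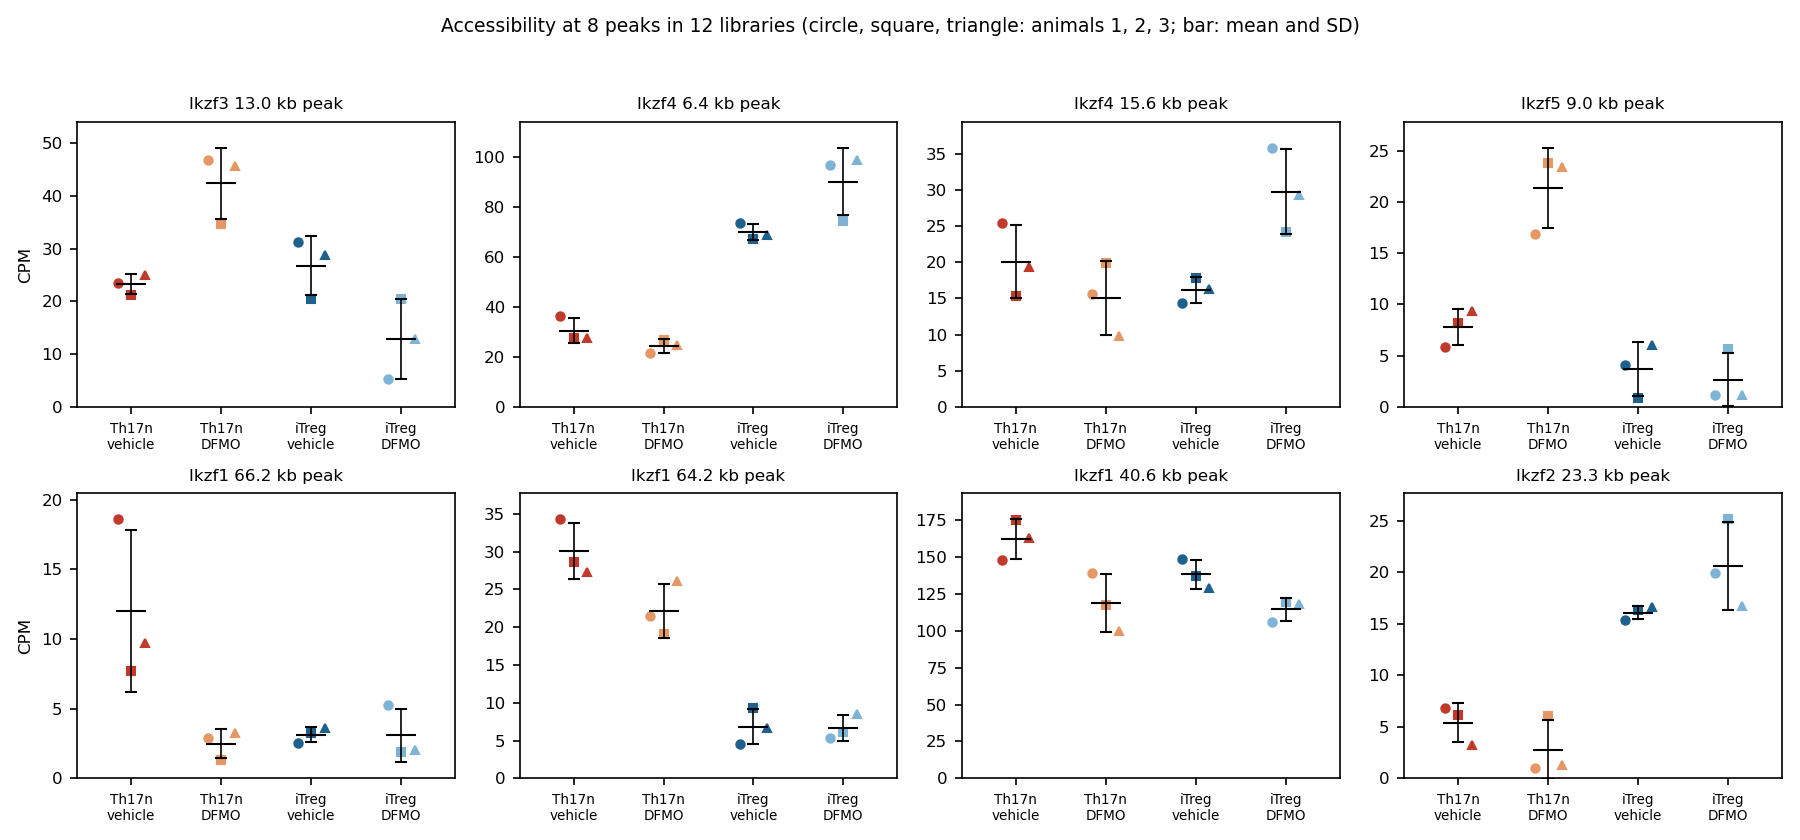
CPM (y axis, from 0, own scale in each panel) at 8 member peaks in the 4 groups (x axis), with 1 symbol per animal and the mean and SD of 3 libraries (bars end at 0). The Ikzf3 13.0-kb peak is highest in Th17n with DFMO (34.6 to 46.8) and lowest in iTreg with DFMO (5.28 to 20.4), the Ikzf4 6.4-kb peak separates the lineages, and the Ikzf1 66.2-kb peak is high only in Th17n vehicle (7.70 to 18.6).

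Ikzf5, which encodes Pegasus, had a strong gene-end peak and a weaker internal peak that was higher in Th17n. The gene-end peak (21.7 kb, chr7:131409894-131410835), over the promoter window printed above, gave 82.3, 72.2 and 88.1 CPM in Th17n vehicle, 71.2, 55.4 and 49.5 in Th17n with DFMO, 81.8, 72.7 and 62.3 in iTreg vehicle and 71.0, 80.2 and 78.2 in iTreg with DFMO. Its DFMO values in Th17n lay below the vehicle values, but -0.40 ± 0.15 did not pass (adjusted p 0.0829). It was lower in Th17n under DFMO (log2 Th17n/iTreg -0.43 ± 0.15, adjusted p 0.023), a call lost without Th17n DFMO animal 2 or 3 or iTreg DFMO animal 2 or 3 (adjusted p up to 0.0926), and with library totals or after thinning (adjusted p up to 0.0591). The 9.0-kb peak (chr7:131397380-131397876) went the other way, with 5.88, 8.16 and 9.40 CPM in Th17n vehicle and 16.9, 23.8 and 23.4 in Th17n with DFMO, against 4.09, 0.860 and 6.06 in iTreg vehicle and 1.17, 5.69 and 1.17 in iTreg with DFMO. All Th17n DFMO libraries lay above all others. It rose with DFMO in Th17n (1.39 ± 0.41, adjusted p 0.0219), was -0.48 ± 0.57 in iTreg, and its interaction of 1.87 ± 0.69 did not pass (adjusted p 0.17). The Th17n rise was lost without any single Th17n library (adjusted p up to 0.106) and in DESeq2 (adjusted p 0.0538). It was higher in Th17n under DFMO (log2 2.96 ± 0.49, adjusted p 4.21e-06) and in vehicle (1.09 ± 0.46, adjusted p 0.0454). The vehicle call was lost without Th17n vehicle animal 2 or 3, Th17n DFMO animal 3 or iTreg vehicle animal 1 or 2 (adjusted p up to 0.353). It was also lost in DESeq2 (adjusted p 0.0703) and after thinning (adjusted p 0.988). The sum of the 2 peaks passed no contrast in edgeR. In vehicle, where both peaks had estimates above 0, it stood at a log2 Th17n/iTreg of 0.31 (adjusted p 0.064).

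The 5 peaks too low to test averaged 0.835 to 2.41 CPM over the 12 libraries: 1 in Ikzf1 (57.8 kb), 3 in or near Ikzf2 (-32.0, -17.6 and 36.9 kb) and 1 in Ikzf3 (48.7 kb). The -32.0-kb Ikzf2 peak gave 0, 0.616 and 0 CPM in Th17n vehicle and 1.53, 2.36 and 2.63 in iTreg vehicle, and the 36.9-kb peak 0, 2.77 and 0.881 against 0, 0.215 and 1.42. At these levels the limit of a 0 in the shallowest library exceeds the values compared.

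Genes whose summed accessibility most resembled a member's were taken as the 3 with the highest Pearson r of log2 CPM (plus 0.5) over the 12 libraries, at least 5 Mb away. They describe likeness only, since the points share 4 group means. For Ikzf1 these were Rcor3 (0.857), Med25 (0.847) and Usp47 (0.810); for Ikzf2 Syngr2 (0.911), Nek8 (0.911) and Osbpl3 (0.910). For Ikzf3 they were Shld2 (0.908), Lrmp (0.883) and Xpo6 (0.873), and for Ikzf5 Tmem154 (0.863), Zeb2 (0.851) and Dse (0.848). Among those of Ikzf4 were Irf2bpl (0.967) and Rbm38 (0.961). Rbm38, an RNA-binding protein, averaged 132 and 114 CPM in Th17n and 170 and 214 in iTreg (vehicle, then DFMO), the same order of groups as Ikzf4.

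Peaks at the corepressor genes that Ikaros proteins work with were called in both directions. Of 55 tested peaks at 17 NuRD, SIN3 and CtBP genes, 4 rose and 3 fell with DFMO in Th17n, and 1 rose and 3 fell in iTreg. Over all peaks 4.50% rose and 4.28% fell in Th17n, and 3.84% and 4.72% in iTreg. In vehicle 15 were higher in Th17n and 14 in iTreg (25.2% and 19.3% of all peaks), and under DFMO 10 and 12 (22.5% and 14.7%). The interaction passed at 1 of the 55 (1.31% of all peaks), a peak in Mbd2, the methyl-DNA-binding subunit of NuRD, at 1.81 ± 0.45 (adjusted p 0.0242). That peak averaged 16.7 and 23.1 CPM in Th17n and 20.5 and 7.56 in iTreg (vehicle, then DFMO), and its fall in iTreg passed (-1.43 ± 0.33, adjusted p 0.00408). The median log2 changes in these 4 contrasts were 0.04, -0.04, -0.18 and -0.13, against 0.01, -0.01, -0.07 and -0.00 over all peaks. A peak in Sin3a, the scaffold of the SIN3 complex, rose with DFMO in iTreg from 263 to 352 CPM (0.44 ± 0.10, adjusted p 0.00224). It was higher in iTreg than in Th17n under DFMO, where Th17n averaged 234 CPM (log2 Th17n/iTreg -0.65 ± 0.10, adjusted p 7.11e-07). Rbbp4, a histone-binding subunit of NuRD, rose at its gene end in Th17n from 78.4 to 107 CPM (0.45 ± 0.13, adjusted p 0.0171) and was lower in Th17n than in iTreg in vehicle (-0.76 ± 0.12, adjusted p 1.7e-06). A peak in Mta3, another NuRD subunit, fell in Th17n (-0.97 ± 0.28, adjusted p 0.02) and in iTreg (-1.45 ± 0.37, adjusted p 0.00846). A peak in Hdac2, a deacetylase of both complexes, was higher in Th17n in vehicle (3.70 ± 0.47, adjusted p 7.72e-09).

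At the 5 cereblon ligase genes, 12 peaks were tested. The 2 DFMO calls among them were rises in iTreg (over all peaks 3.84% rose in iTreg, and 8.78% changed in Th17n). For lineage 1 was higher and 2 were lower in Th17n in each treatment (25.2% and 19.3% of all peaks in vehicle, 22.5% and 14.7% under DFMO). The peak at the end of Crbn, which encodes cereblon itself, rose in iTreg from 34.7 to 55.0 CPM (0.68 ± 0.18, adjusted p 0.0127) and stood at 32.0 and 35.4 CPM in Th17n with vehicle and DFMO. It was higher in iTreg than in Th17n under DFMO (log2 Th17n/iTreg -0.71 ± 0.19, adjusted p 0.00232).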

How the data were processed

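The authors deposited unscaled counts of ATAC-seq reads in each peak for 12 libraries of mouse cells. Per the submitters' processing notes the tools were Trimmomatic, FastQC, Bowtie2 and MACS2 and the build mm10. Settings and the base of the start coordinates (0 or 1) are not stated in those sources, so peak starts are printed as deposited. Peaks were assigned to the nearest protein-coding model (RefSeq, GRCm38.p6) within 100 kb; that table gives no strand. The family and all gene lists were chosen with earlier results of these data known.

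CPM uses library totals. Tests used edgeR 4.0.16 in R 4.3.3 (a filterByExpr minimum count of 10, TMM, trended dispersion, glmQLFit, glmQLFTest), 1 model of 4 group means over 12 libraries, and Benjamini-Hochberg adjustment over 43726 peaks, or over 14178 genes for counts summed over a gene's peaks. TMM factors were computed apart for peaks and for gene sums. In Th17n vehicle they were 1.02 to 1.05 for peaks and 0.959 to 0.990 for sums. In iTreg vehicle they were 0.974 to 0.994 and 1.00 to 1.01. Log2 changes of peaks and of sums thus do not share a baseline. The code was tested on simulated data. Alternatives were RLE factors, library totals alone, DESeq2 1.42.0, no filter, an animal block, thinning, only the groups compared, and each library left out in turn. Libraries of an animal are paired by the labels. After removal of group means, 18 same-animal pairs correlated at -0.054 to 0.082. For 7 of the 12 libraries the best match in another group was from the same animal. Libraries of a group correlated at 0.881 to 0.960, and their chi-square per degree of freedom was at least 2.03. Named peaks were those within 1 kb of a gene model's end, the highest of each gene and those past the threshold (in a gene with over 8, the 8 with the smallest adjusted p). From a gene list up to 3 genes per contrast with the smallest adjusted p past the threshold could be named. Some items that these rules name are not reported here.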

Additional observations from a re-analysis of the deposited data

Results flagged for a closer look

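In all, 3 results differed between the lineages by a test of the difference itself, the interaction of DFMO and lineage. At the Ikzf3 13.0-kb peak (start 98477232) the DFMO effect was higher in Th17n than in iTreg by 1.88 log2 units. For the counts summed over the Ikzf3 peaks this difference was 0.58, and for those summed over the Ikzf4 peaks -0.63. The Ikzf3 peak is part of the Ikzf3 sum, so these 2 are not independent. No single library was tested as an outlier, since each group held 3. No data outside the 12 libraries were used.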

How the results depend on the processing

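Of 54 calls at member peaks and gene sums, 34 held under every other setting that kept all libraries (up to 7 for a call), 29 held without each library in turn, and 26 held throughout. Thinning all libraries to the smallest total lost 19 calls, DESeq2 6, library totals alone 4, only the groups compared 4 and RLE factors 1; the animal block and no filter lost 0. Thinning keeps fewer counts and also makes the library totals alike. The cause of the lost calls was not tested for any setting.

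DFMO rises in Th17n numbered 2, and 1 in DESeq2 or after thinning (0 to 2 without 1 library). Falls numbered 2, and 1 after thinning (1 to 3). In iTreg, 1 rise became 2 with RLE factors, with the animal block or with only the groups compared, and 0 after thinning (0 to 3). The 2 falls became 1 in DESeq2 and 0 after thinning or with only the groups compared (0 to 3). Lineage calls in vehicle, 7 higher and 11 lower in Th17n, became 4 and 6 after thinning (5 to 8 and 8 to 12). Under DFMO the 6 and 15 ran from 4 to 6 and 10 to 15. The 1 interaction call became 2 with the animal block and 0 after thinning (1 to 2). Pairing by animal changed no other call than those at the Ikzf1 5.3-kb and Ikzf3 23.2-kb peaks, which both passed with the block.

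For gene sums, the 1 lineage call lower in Th17n in vehicle became 2 with library totals alone and 0 after thinning or without the Ikzf4 6.4-kb peak (0 to 1), where the Ikzf4 difference turned from -0.37 to 0.14. Under DFMO the 1 higher became 0 without the Ikzf3 13.0-kb peak (0 to 1) and the 2 lower became 1 after thinning (1 to 2). Both interaction calls became 0 after thinning and without these peaks (0 to 1 each). The iTreg rise ran from 0 to 1 without 1 library, as did the counts of 0 iTreg falls and 0 sums higher in Th17n in vehicle. Sums without a named peak were chosen after seeing the data.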
